A study of Solanum lycopersicum with 26 samples.

Results

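The 10 genes described here are Aux/IAA genes of tomato (Solanum lycopersicum), followed in the embryo and the endosperm of mature seeds. They were chosen by name, as the rows of the count table whose ID, before its version suffix, is one of a given list of 10 family members, and all 10 were found among the 33976 IDs. Going by the chromosome number that tomato IDs carry, they are Solyc01g097290 on chromosome 1, Solyc03g120380 and Solyc03g120500 on chromosome 3, Solyc04g076850 on chromosome 4, Solyc06g053830 and Solyc06g053840 on chromosome 6, Solyc08g021820 on chromosome 8, Solyc09g065850 and Solyc09g083290 on chromosome 9, and Solyc12g007230 on chromosome 12. Solyc06g053830 and Solyc06g053840 stand in adjacent rows of the table. The family name came with the list, and no individual name, role, length or sequence could be attached to an ID from the sources used here.

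Aux/IAA proteins are short-lived nuclear repressors of auxin signalling. They bind auxin response factors (ARFs), the transcription factors that act on auxin-responsive promoters, and recruit TOPLESS co-repressors to them. When auxin joins an Aux/IAA protein to the F-box receptors TIR1 or AFB, the repressor is ubiquitinated and degraded, and many Aux/IAA genes are themselves induced by auxin, which closes a feedback loop. In Arabidopsis, auxin signalling of this kind patterns the embryo, supports the development of the endosperm after fertilization and takes part in seed dormancy. RNA abundance, which is what was measured here, does not report the stability of the proteins.

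The seeds came from fruits of cultivar Moneymaker that were detached at the breaker stage, 63 days after flowering (DAF), and ripened off the plant for 7 days under 1 of 4 environments, so that all tissue was 70 DAF old. Days and nights were at 32 °C and 26 °C under high temperature (HT) and at 23 °C and 20 °C under standard temperature (ST). Lamps gave 300 µE in high light (HL) or 25 µE in dim light (DL) over a photoperiod of 16 h. The groups were HT_HL, ST_DL, HT_DL and ST_HL, the last being the standard condition, each as embryo (Em) and endosperm (End). There were 3 libraries per group and 4 in HT_DL embryo and ST_HL embryo, giving 14 embryo and 12 endosperm libraries, and a replicate held 10 seeds from 2 fruits. Because RNA of the embryo and the endosperm was extracted with different sample type settings of the kit, tissue and extraction setting cannot be told apart.

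The smallest library held 20450644 counts and the largest 21519318, which makes depth nearly even. The first principal component (PC1) of all libraries held 65.6% of the variance and separated the tissues completely, with scores of 103 to 125 in the embryo and of -143 to -128 in the endosperm. That separation was the only check of the tissue labels, because none of the tissue markers could be matched to an ID. Within the tissues some libraries stood apart. In the embryo, ST_HL replicates 2 and 3 and HT_DL replicates 2 and 3 scored between 121 and 126 on the PC1 of embryo libraries, and the other 10 libraries between -65.6 and -27.4. In the endosperm, HT_DL replicate 3, ST_DL replicate 1 and ST_HL replicates 2 and 3 scored between 36.9 and 65.5, and the other 8 between -68.0 and 6.41. Those 8 were not a single cluster. The HT_HL libraries scored between -68.0 and -54.5 and the rest between -24.5 and 6.41, so this component also set HT_HL endosperm apart. Results that rest on these libraries are given with and without them where the gene could still be fitted. Leaving out the 4 endosperm libraries leaves 1 ST_HL endosperm library, which is then assumed to vary like the other groups.

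Levels are CPM, counts scaled to the size of the library, which correct for depth and not for transcript length, so they compare a gene between libraries and not different genes. The 10 genes summed to between 230.3 and 319 CPM per embryo library and to between 155 and 220.4 CPM per endosperm library. A single gene, Solyc04g076850, supplied 55.4% to 78.7% of the reads counted on the family, with a median of 64.4%. At the other end, Solyc06g053830 was at 0 counts in all 12 endosperm libraries and in 11 of 14 embryo libraries, and never had more than 2 counts. Solyc03g120380 was likewise at 0 in all 12 endosperm libraries and in 10 of 14 embryo libraries, with at most 5 counts, in HT_DL embryo replicate 3. A count of 0 allows up to 3 counts, which is 0.120 to 0.164 CPM in these libraries, so both genes were at or near the limit of detection.

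A filter on low counts, passed by 7 of the 10 genes in the embryo and by 8 in the endosperm and in the fit of all libraries, preceded every test. Solyc06g053830 and Solyc03g120380 passed in none. Solyc08g021820 passed only through its endosperm counts, so a tissue difference was a condition of its being tested. Solyc09g083290 passed in the embryo only through the 4 libraries that stood apart. In the endosperm, Solyc09g083290 and Solyc01g097290 reached 10 counts only in the 4 libraries that stood apart there, none of them HT_HL. The filter thus favoured a lower HT_HL endosperm level of these genes. A gene was called changed at a Benjamini-Hochberg adjusted p below 0.05, over all genes tested, and an absolute log2 fold change above 1 in edgeR's quasi-likelihood test. In these bulk tissues fewer cells of a type and less RNA per cell cannot be told apart.

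Solyc04g076850, the leading gene of the family, was higher in embryos than in endosperm under all 4 conditions. Its level was 155, 173 and 188 CPM in HT_HL embryos, against 94.8, 93.4 and 99.0 CPM in HT_HL endosperm. In ST_DL it was 236, 209.9 and 216 CPM in the embryo, against 100.2, 100.1 and 97.8 CPM in the endosperm. In HT_DL it was 198, 157, 152 and 193 CPM in the embryo, against 107, 111 and 135 CPM in the endosperm. In ST_HL it was 206, 171, 201 and 237 CPM in the embryo, against 114, 126 and 119.9 CPM in the endosperm. The lowest embryo library (151.9 CPM) thus lay above the highest endosperm library (134.7 CPM), and the tissues did not overlap in any condition.

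The embryo level of Solyc04g076850 was 1.78-fold that of the endosperm in HT_HL (log2 fold change 0.83, SE 0.12, adjusted p = 5.29e-06). The ratio was 2.19-fold in ST_DL (log2 fold change 1.13, SE 0.12, adjusted p = 9.34e-08), the only condition in which it exceeded the fold threshold. It was 1.46-fold in HT_DL (log2 fold change 0.55, SE 0.11, adjusted p = 0.000285) and 1.68-fold in ST_HL (log2 fold change 0.75, SE 0.11, adjusted p = 9.85e-06). Under the alternatives run, the adjusted p of these 4 differences was never above 0.0156 and the direction never turned. Without the 4 embryo or the 4 endosperm libraries that stood apart, too, the direction was the same.

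**Figure D1:**
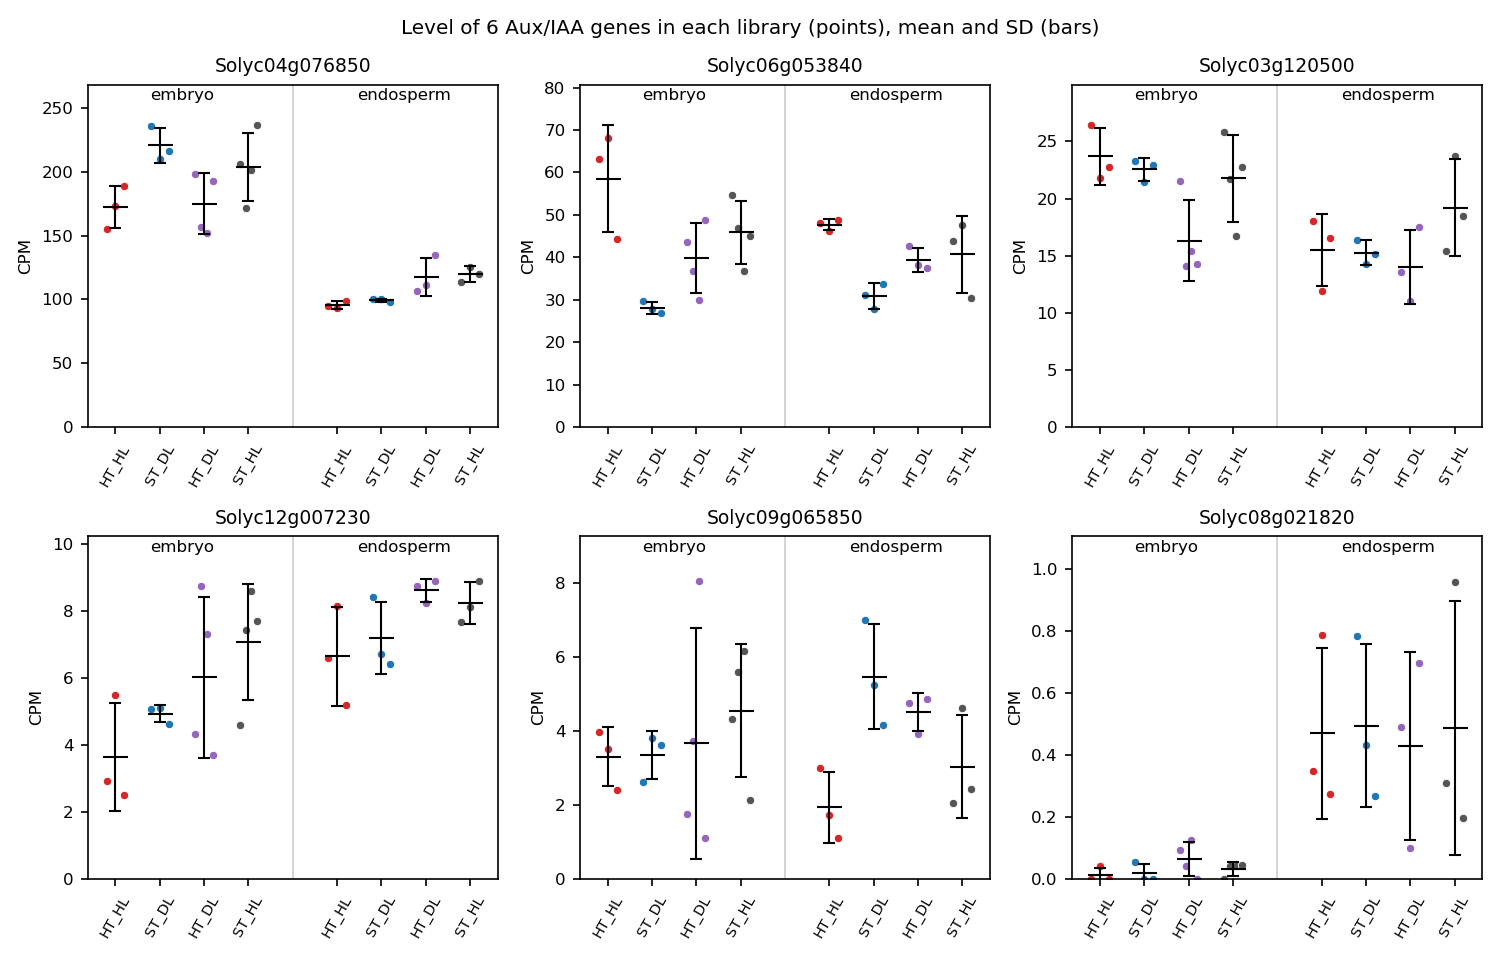
CPM of 6 Aux/IAA genes in each library (points) with the group mean and SD (black bars), for embryo groups on the left and endosperm groups on the right of each panel, each y axis starting at 0. For Solyc04g076850 all 14 embryo libraries (151.9 to 236.6 CPM) lie above all 12 endosperm libraries (93.4 to 134.7 CPM), and Solyc08g021820 stays at or below 0.124 CPM in the embryo.

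Ordered by mean level, Solyc04g076850 ran from ST_DL embryo (221 ± 13.6 CPM, SD, n = 3) through ST_HL embryo (204 ± 26.7 CPM, n = 4) and HT_DL embryo (175 ± 23.9 CPM, n = 4) to HT_HL embryo (172 ± 16.5 CPM, n = 3). ST_HL endosperm (119.8 ± 6.02 CPM), HT_DL endosperm (118 ± 15.1 CPM), ST_DL endosperm (99.3 ± 1.32 CPM) and HT_HL endosperm (95.7 ± 2.93 CPM, n = 3 each) followed. Neighbours in this order overlapped except at 2 places, between HT_HL embryo and ST_HL endosperm and between HT_DL endosperm and ST_DL endosperm. Its coefficient of variation came to 14.5% over all embryo libraries and to 12.2% over all endosperm libraries.

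Solyc08g021820 ran the other way and was detected mainly in the endosperm. It had 0 to 3 counts in every embryo library, at most 0.124 CPM, with 6 of 14 at 0, and 2 to 19 counts in every endosperm library. Its endosperm levels were 0.349, 0.786 and 0.273 CPM in HT_HL, 0.784, 0.433 and 0.267 CPM in ST_DL, 0.491, 0.0993 and 0.695 CPM in HT_DL, and 0.309, 0.958 and 0.198 CPM in ST_HL. The tissues overlapped in HT_DL and in no other condition. Summed over libraries, 11 counts in the embryo stood against 111 counts in the endosperm, an endosperm level 13.3-fold that of the embryo (exact 95% interval 7.18 to 27.5, counting error only). By condition, 1 embryo count stood against 28 endosperm counts in HT_HL (ratio endosperm over embryo 33.8, 95% interval 5.58 to 1380), 1 against 28 in ST_DL (28.7, 4.75 to 1175), 6 against 26 in HT_DL (6.48, 2.61 to 19.2) and 3 against 29 in ST_HL (14.9, 4.62 to 76.5).

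The call of Solyc08g021820 as lower in the embryo was made in all 4 conditions, with adjusted p = 0.00146 in HT_HL, 0.00238 in ST_DL, 0.0117 in HT_DL and 0.00163 in ST_HL. In HT_DL it was lost without HT_DL endosperm replicate 3 (adjusted p = 0.0722), without the 4 endosperm libraries that stood apart (0.0797) and with voom (0.0866). In ST_HL it was lost without those 4 endosperm libraries (adjusted p = 0.0565). Given the filter, these calls describe the gene and are no support for a tissue difference of the family.

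Solyc01g097290 was the third gene with a tissue call, and the clearest one in HT_HL. There it measured 10.1, 10.3 and 9.67 CPM in the embryo, against 0.150, 0.147 and 0.273 CPM in the endosperm, a log2 fold change of 5.68 (SE 1.27, adjusted p = 0.000738) that was called under every alternative run. The endosperm values are 3, 3 and 5 counts, at or near the limit of detection, so the size of the fold is uncertain. In ST_DL it measured 3.31, 3.14 and 5.15 CPM in the embryo, against 1.41, 0.163 and 0.107 CPM in the endosperm (log2 fold change 2.75, SE 1.09, adjusted p = 0.0410). The groups of both conditions did not overlap. The ST_DL call was lost without ST_DL embryo replicate 1, 2 or 3 (adjusted p = 0.0551, 0.0547 and 0.0952) and without ST_DL endosperm replicate 2 or 3 (0.134 and 0.136).

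In the other conditions, HT_DL and ST_HL, the endosperm replicates of Solyc01g097290 differed by a larger ratio than the tissue means did. The gene overlapped between the tissues in ST_HL and not in HT_DL. It measured 6.55, 11.7, 13.3 and 5.98 CPM in HT_DL embryos, against 0.147, 0.248 and 5.61 CPM in HT_DL endosperm (log2 fold change 2.20, SE 0.95, adjusted p = 0.0549). Without HT_DL endosperm replicate 3 the log2 fold change was 5.51 (adjusted p = 0.000528), and without the 4 embryo libraries that stood apart 1.60 (adjusted p = 0.186). It measured 5.17, 18.0, 14.2 and 4.89 CPM in ST_HL embryos, against 0.206, 7.01 and 2.42 CPM in ST_HL endosperm (log2 fold change 1.70, SE 0.92, adjusted p = 0.123). With the replicate number as a block, which pairs the tissues in ST_HL, the log2 fold change was 2.44 (adjusted p = 0.0191). The adjusted p was 0.0338 without ST_HL endosperm replicate 2, and without the 4 embryo libraries that stood apart the log2 fold change was 0.59 (adjusted p = 0.640). Without the 4 endosperm libraries that stood apart, among them the 2 ST_HL libraries in which the gene was high, it was 5.62 (adjusted p = 0.000187), which rests on the single ST_HL endosperm library left, at 0.206 CPM, and on the spread of the other groups.

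No other member was called between the tissues with all libraries in edgeR. Solyc03g120500 was higher in the embryo by adjusted p alone in HT_HL (26.5, 21.8 and 22.8 CPM in the embryo, against 18.0, 11.9 and 16.6 CPM in the endosperm, log2 fold change 0.60, SE 0.20, adjusted p = 0.0146) and in ST_DL (23.3, 21.4 and 22.9 CPM, against 16.4, 14.3 and 15.1 CPM, log2 fold change 0.54, SE 0.20, adjusted p = 0.0262). Its groups overlapped in neither condition. It missed the threshold without HT_HL embryo replicate 1 (adjusted p = 0.0744) or HT_HL endosperm replicate 2 (0.0894), and, in ST_DL, without embryo replicate 1 or 3 (0.0584 and 0.0562) or endosperm replicate 2 or 3 (0.0775 and 0.0595). In HT_DL and ST_HL its log2 fold changes were 0.19 (adjusted p = 0.388) and 0.16 (0.479).

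Solyc12g007230 was lower in the embryo in HT_HL, at 2.93, 5.49 and 2.51 CPM, against 6.58, 8.15 and 5.19 CPM in the endosperm (log2 fold change -0.88, SE 0.30, adjusted p = 0.0192). The ranges overlapped, and the difference missed the threshold without HT_HL embryo replicate 1 or 3 (adjusted p = 0.0816 and 0.103) or HT_HL endosperm replicate 2 (0.0931). In the other direction, 4 of 15 alternatives, no fold threshold among them, called the gene lower in the embryo. Over all 15 the log2 fold change ran from -1.31 to -0.66. The log2 fold changes of Solyc12g007230 in ST_DL, HT_DL and ST_HL were -0.56, -0.54 and -0.24 (adjusted p = 0.130, 0.104 and 0.483). In HT_DL 1 of 16 alternatives called the gene lower in the embryo. Over those alternatives the log2 fold change ran from -1.13 to -0.36, and the lowest adjusted p was 0.00235.

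Solyc06g053840 had nearly the same level in both tissues, with log2 fold changes of 0.28, -0.15, -0.01 and 0.15 in HT_HL, ST_DL, HT_DL and ST_HL (adjusted p = 0.197, 0.507, 0.958 and 0.465). Those of Solyc09g065850 were 0.75, -0.73, -0.31 and 0.56 (adjusted p = 0.251, 0.266, 0.603 and 0.348). In HT_DL, however, 1 of 16 alternatives called Solyc09g065850 lower in the embryo. Over those alternatives its log2 fold change ran from -1.67 to -0.02, and its lowest adjusted p was 0.00366. Solyc09g083290 was not called with all libraries in edgeR, but was under some alternatives. In ST_DL it had 0 counts in all 3 embryo libraries, against 34, 3 and 4 counts in the endosperm, so no fold is given (adjusted p = 0.0965). There it was called lower in the embryo by DESeq2 (adjusted p = 0.0180) and voom (0.0290), with the replicate block (0.0335) and without the 4 embryo libraries that stood apart (0.0183). In HT_DL the log2 fold change was 2.53 (adjusted p = 0.233), and with the block 3.43 (0.0402). In ST_HL it was 1.41 (adjusted p = 0.475), and the gene was called lower in the embryo by voom (0.0390) and without the 4 embryo libraries (0.0200).

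**Figure D2:**
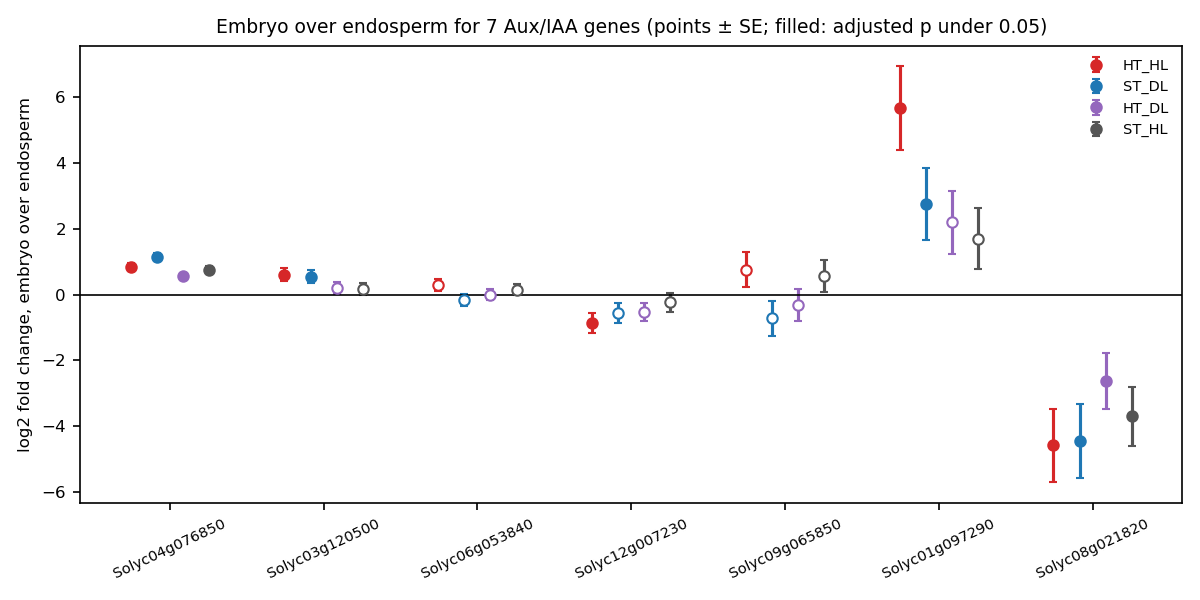
Log2 fold change of embryo over endosperm (y axis) for 7 Aux/IAA genes (x axis) in HT_HL, ST_DL, HT_DL and ST_HL, as points with their SE; filled points have an adjusted p below 0.05. Solyc04g076850 is filled and above 0 in all 4 conditions (0.55 to 1.13), while the fitted values of Solyc08g021820, which rest on 11 embryo counts, are all below 0.

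Because the filter fixed the direction of Solyc08g021820, the family was counted over the other 7 genes tested. In HT_HL 1 of them was called, higher in the embryo, where 31.2% of all genes tested were called in either direction, and in ST_DL 2 were called, both higher (background 29.6%). In HT_DL 0 were called (32.2%), with 2 at an unadjusted p below 0.05 and 1 called by each of DESeq2 and voom. In ST_HL 0 were called (31.1%), with 1 at an unadjusted p below 0.05, 0 called by DESeq2, 2 by voom and 1 by edgeR with the replicate block. By adjusted p alone, 3 were higher and 1 lower in HT_HL (background 52.4%), 3 were higher in ST_DL (50.6%), 1 was higher in HT_DL (55.9%) and 1 was higher in ST_HL (55.1%). The share of all genes at an unadjusted p below 0.05 is at least as large as these. Shares of all genes called by DESeq2, voom or the block are not given, here or below. Counts from those settings are therefore not read as results about the family. The median log2 fold change of the 7 genes was 0.60 in HT_HL, -0.15 in ST_DL, 0.19 in HT_DL and 0.56 in ST_HL, and that of all genes tested was between -0.01 and 0.07.

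Turning to the ripening environment, the mean endosperm level of Solyc04g076850 was lower when either light or temperature alone departed from the standard condition. Only the difference with temperature passed by adjusted p. The 3 HT_HL and 3 ST_DL endosperm libraries lay between 93.4 and 100.2 CPM, and the 3 HT_DL and 3 ST_HL libraries between 106.7 and 134.7 CPM, without overlap. Against ST_HL, the log2 fold change was -0.33 in HT_HL (SE 0.09, adjusted p = 0.0216, 0.797 of the ST_HL level), -0.28 in ST_DL (SE 0.09, adjusted p = 0.116) and -0.03 in HT_DL (adjusted p = 0.947). HT_DL endosperm was above HT_HL endosperm by a log2 fold change of 0.29 (SE 0.09, adjusted p = 0.0339) and above ST_DL endosperm by 0.24 (SE 0.09, adjusted p = 0.0998).

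The light by temperature interaction of Solyc04g076850 in the endosperm, the effect of dim light at high temperature minus that at standard temperature, was 0.57 on the log2 scale (SE 0.13, adjusted p = 0.0304). None of these changes reached the fold threshold. They depended on single libraries. The adjusted p of the interaction ranged from 0.0220 to 0.0925 when 1 library was left out, and passed 0.05 without ST_DL replicate 1, 2 or 3 (0.0524, 0.0848 and 0.0925), ST_HL replicate 2 or 3 (0.0662 and 0.0812), HT_DL replicate 2 (0.0503) or HT_HL replicate 1 (0.0805). Without the 4 endosperm libraries that stood apart the interaction was 0.40 (adjusted p = 0.334).

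The HT_HL against ST_HL difference missed the threshold without ST_HL endosperm replicate 2 or 3 (adjusted p = 0.0787 and 0.0689) or HT_HL endosperm replicate 1 or 2 (0.0744 and 0.0697). The HT_DL against HT_HL difference did so without HT_DL endosperm replicate 3 (0.125) or HT_HL endosperm replicate 1 or 2 (0.102 and 0.0861). Without the 4 endosperm libraries that stood apart they were -0.26 (adjusted p = 0.222) and 0.19 (adjusted p = 0.214). In the embryo the gene gave log2 fold changes against ST_HL of -0.23 in HT_HL (adjusted p = 0.156), 0.08 in ST_DL (0.686) and -0.22 in HT_DL (0.977), and an interaction of -0.06 (0.803).

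Solyc06g053840 followed the environments in the same order in both tissues, from HT_HL, the highest, through ST_HL and HT_DL to ST_DL, the lowest. In the embryo it measured 63.1, 68.2 and 44.2 CPM in HT_HL, 29.6, 27.9 and 26.9 CPM in ST_DL, 43.6, 36.8, 29.9 and 48.9 CPM in HT_DL, and 54.7, 46.8, 36.8 and 45.1 CPM in ST_HL. In the endosperm it measured 48.1, 46.3 and 48.7 CPM in HT_HL, 31.1, 27.8 and 33.8 CPM in ST_DL, 42.7, 38.3 and 37.4 CPM in HT_DL, and 43.9, 47.6 and 30.6 CPM in ST_HL. The ST_DL embryos lay below every other embryo library.

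The ST_DL embryo level of Solyc06g053840 was 0.598 of the ST_HL level (log2 fold change -0.74, SE 0.18, adjusted p = 0.0533, range over the alternatives 0.00220 to 0.201), and the endosperm change was -0.40 (SE 0.14, adjusted p = 0.146). HT_DL embryos were lower than HT_HL embryos by adjusted p alone (log2 fold change -0.56, SE 0.17, adjusted p = 0.0466, range over the alternatives 0.0120 to 0.193). Leaving out HT_DL embryo replicate 2 or 3 (0.105 and 0.113) or HT_HL embryo replicate 1 or 2 (0.193 and 0.137) put that change beyond the threshold. Without the 4 embryo libraries that stood apart it was -0.37 (adjusted p = 0.181), and the ST_DL change against ST_HL was -0.83 (adjusted p = 0.0634). The other changes did not pass: HT_HL against ST_HL was 0.36 in the embryo (adjusted p = 0.145) and 0.23 in the endosperm (0.254), and HT_DL against ST_DL was 0.54 in embryos (0.0964) and 0.35 in endosperm (0.125). In the ranking of the 8 group means only HT_DL endosperm and ST_DL endosperm were neighbours whose ranges did not overlap.

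Solyc03g120500 was lower in HT_DL than in HT_HL embryos by adjusted p alone. It measured 21.5, 14.1, 15.4 and 14.2 CPM in HT_DL, against 26.5, 21.8 and 22.8 CPM in HT_HL, without overlap (log2 fold change -0.54, SE 0.16, adjusted p = 0.0404, range over the alternatives 0.00783 to 0.194). The change missed the threshold without HT_DL embryo replicate 2, 3 or 4 (0.101, 0.0875 and 0.0732) or HT_HL embryo replicate 1 or 3 (0.194 and 0.0617), and was -0.44 (adjusted p = 0.135) without the 4 embryo libraries that stood apart. Against ST_HL embryos, at 25.8, 21.8, 16.7 and 22.8 CPM, the HT_DL change was -0.41 (adjusted p = 0.870), and against ST_DL embryos -0.43 (0.134).

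Solyc09g065850 gave the only call between environments. In the endosperm it measured 4.76, 3.92 and 4.87 CPM in HT_DL, against 2.99, 1.72 and 1.09 CPM in HT_HL, a 2.32-fold higher level without overlap (log2 fold change 1.21, SE 0.38, adjusted p = 0.0388). It was 7.00, 5.26 and 4.17 CPM in ST_DL endosperm, against 2.06, 4.64 and 2.42 CPM in ST_HL endosperm (log2 fold change 0.84, SE 0.37, adjusted p = 0.246), so that the means of both dim light groups exceeded those of both high light groups. The call was lost in 9 of 15 alternatives, among them those without HT_DL endosperm replicate 1, 2 or 3 (0.0744, 0.0585 and 0.0783) and without HT_HL endosperm replicate 2 or 3 (0.0936 and 0.105), and held without the 4 endosperm libraries that stood apart (log2 fold change 1.16, adjusted p = 0.0498). The counts of this gene were not whole numbers in 21 of 26 libraries, the sign of reads that Salmon divided among similar transcripts, and its level is uncertain to that extent. In the embryo it measured 3.98, 3.53 and 2.42 CPM in HT_HL, 2.61, 3.81 and 3.62 CPM in ST_DL, 1.76, 3.74, 8.06 and 1.12 CPM in HT_DL, and 4.32, 5.60, 6.17 and 2.13 CPM in ST_HL, and all groups overlapped with ST_HL.

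Solyc12g007230 averaged 3.64 ± 1.61 CPM in HT_HL embryos and 7.08 ± 1.73 CPM in ST_HL embryos (SD, n = 3 and 4, log2 fold change -0.96, SE 0.36, adjusted p = 0.0763). The difference was called without ST_HL embryo replicate 1 (log2 fold change -1.12, adjusted p = 0.0456) and without HT_HL embryo replicate 2 (-1.36, adjusted p = 0.0359). Its embryo libraries ran from 2.51 to 8.74 CPM and its endosperm libraries from 5.19 to 8.90 CPM.

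**Figure D3:**
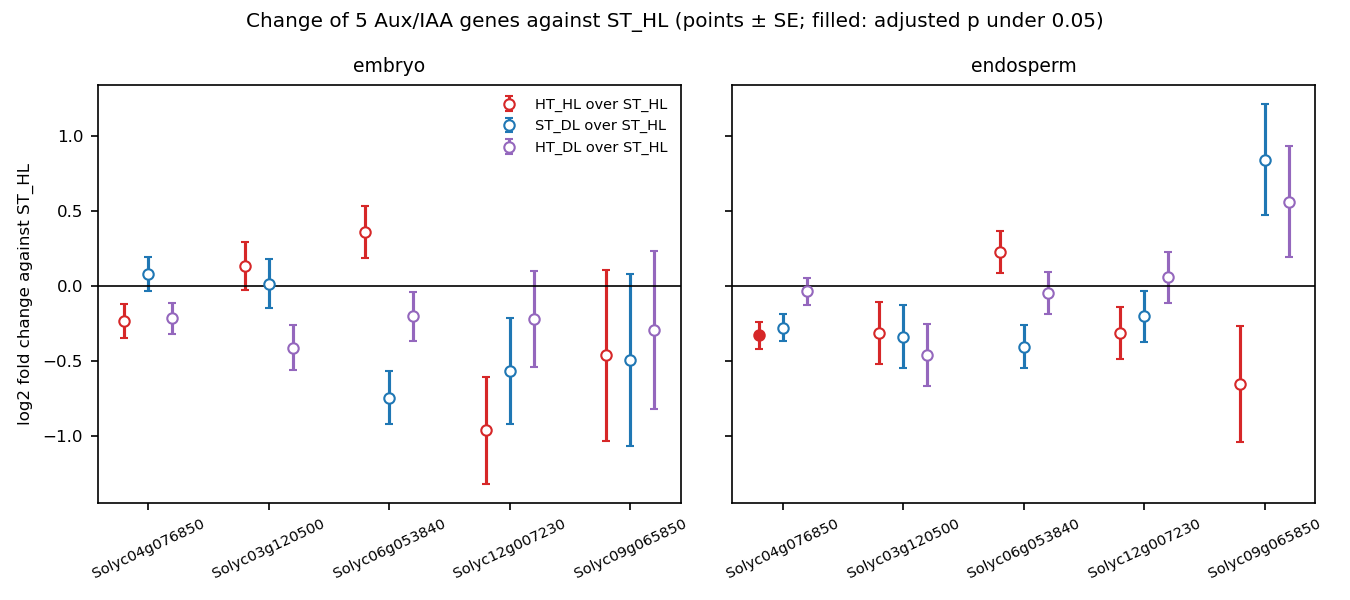
Log2 fold change of HT_HL, ST_DL and HT_DL over ST_HL (y axis) for 5 Aux/IAA genes (x axis), embryo in the left panel and endosperm in the right, as points with their SE; filled points have an adjusted p below 0.05. The HT_HL change of Solyc04g076850 in the endosperm (-0.33) is the only filled point, and the lowest embryo values are those of Solyc12g007230 in HT_HL (-0.96) and Solyc06g053840 in ST_DL (-0.74).

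Counted over the family, 0 of 7 genes were called in the embryo in any of HT_HL, ST_DL or HT_DL against ST_HL, where 4.84%, 0.587% and 0% of all genes tested were called by edgeR. By adjusted p alone the counts were also 0, 0 and 0 (background 17.8%, 2.03% and 0%). At an unadjusted p below 0.05 there were 2, 3 and 1 genes, all lower, where 37.5%, 23.8% and 5.21% of all genes passed. Without Solyc09g083290, which passed the filter through ST_HL and HT_DL libraries alone, they were 1, 2 and 1. DESeq2 called 0, 1 and 0 (Solyc01g097290 in ST_DL, log2 fold change -1.47, adjusted p = 0.0265) and voom 0, 0 and 0.

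HT_DL against HT_HL embryos gave 0 of 7 (3.85%), with 2 genes lower at an unadjusted p below 0.05 (background 35.0%), both of which passed by adjusted p alone (14.6%), and 0 called by DESeq2 or voom. HT_DL against ST_DL embryos gave 0 of 7 (1.23%, and 0 by adjusted p alone, background 4.44%). There 3 genes were higher and 2 lower at an unadjusted p below 0.05 (26.0%), 1 was called by DESeq2 (Solyc01g097290, log2 fold change 1.31, adjusted p = 0.0460) and 0 by voom. The embryo interaction gave 0 of 7 (1.76%, and 0 by adjusted p alone, background 3.27%), with 2 higher and 1 lower at an unadjusted p below 0.05 (33.9%), 1 called by DESeq2 (Solyc09g083290) and 0 by voom. The replicate number was also run as a block over all embryo libraries, although pairing by number held only between HT_DL and ST_HL embryos. With this block, which also joins ST_DL and HT_HL embryos by number, edgeR called 3 genes in the embryo interaction. These were Solyc01g097290 (1.63 on the log2 scale, adjusted p = 0.0358), Solyc12g007230 (1.40, adjusted p = 0.0463) and Solyc09g083290 (adjusted p = 0.0145, with no fold given because the ST_DL embryos were at 0). Without the 4 embryo libraries that stood apart the interaction of Solyc01g097290 was -0.34 (adjusted p = 0.639).

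In the endosperm 0 of 8 genes were called in HT_HL, ST_DL or HT_DL against ST_HL, where 5.85%, 1.14% and 0.599% of all genes were called by edgeR. At an unadjusted p below 0.05, HT_HL gave 3 lower genes, ST_DL 1 higher and 2 lower, and HT_DL 1 lower, where 38.0%, 18.9% and 11.0% of all genes passed. By adjusted p alone edgeR gave 1, 0 and 0 genes (background 23.8%, 3.77% and 1.04%). DESeq2 called 2 genes in HT_HL, Solyc09g083290 (log2 fold change -4.09, adjusted p = 0.0319) and Solyc01g097290 (-4.10, adjusted p = 0.0329), and 0 in the others, and voom called 0 in all 3. Both genes were also among the 3 lower HT_HL genes at an unadjusted p below 0.05. Given the filter, they are no support for a change of the family in HT_HL. HT_DL against HT_HL gave 1 of 8 (5.93%), and 2 by adjusted p alone (24.7%), both higher. HT_DL against ST_DL gave 0 of 8 (4.01%) and the interaction 0 of 8 (2.06%), and by adjusted p alone 0 (12.6%) and 1 (5.14%), with 2 and 3 genes higher at an unadjusted p below 0.05 (28.1% and 24.8%) and 0 called by DESeq2 or voom.

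Against ST_HL, the median log2 change of the 6 embryo genes other than Solyc09g083290 was -0.16 in HT_HL, -0.53 in ST_DL and -0.22 in HT_DL, where the medians of all genes were -0.07, -0.08 and 0.00. In the endosperm the medians of the 8 genes were -0.32, -0.31 and -0.12, and those of all genes lay between -0.01 and 0.01. The family medians were thus below those of all genes in each of these 6 comparisons, which share their ST_HL libraries within a tissue. The 8 endosperm genes include Solyc09g083290 and Solyc01g097290, which passed the filter only through libraries that stood apart. The endosperm medians are therefore not independent of the filter. Tested directly, the effect of HT_HL, ST_DL or HT_DL differed between embryo and endosperm for 0 of 8 genes (0.789%, 0.0331% and 0.00945% of all genes), also by adjusted p alone (1.73%, 0.0378% and 0.00945%), with 1, 2 and 0 genes at an unadjusted p below 0.05 (16.8%, 8.71% and 4.01%) and 0 called by DESeq2 or voom.

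Solyc01g097290 and Solyc09g083290 differed strongly between replicates of the same group. Solyc09g083290 measured 0.0464, 4.35, 4.18 and 0 CPM in HT_DL embryos and 0, 5.73, 6.54 and 0 CPM in ST_HL embryos, and at most 0.126 CPM in HT_HL and ST_DL embryos. In ST_HL embryos these were 139 and 159 counts in replicates 2 and 3 and 0 counts in replicates 1 and 4. In the endosperm it measured 0.0998, 0.0491 and 0.0547 CPM in HT_HL, 1.78, 0.163 and 0.214 CPM in ST_DL, 0, 0 and 1.09 CPM in HT_DL, and 0.309, 2.52 and 0.593 CPM in ST_HL.

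These high values came from the libraries that stood apart on PC1, in both tissues. Solyc09g083290 was between 4.18 and 6.54 CPM in the 4 embryo libraries that stood apart and between 0 and 0.126 CPM in the other 10, and between 0.593 and 2.52 CPM in the 4 endosperm libraries and between 0 and 0.309 CPM in the other 8. Solyc01g097290 was between 11.7 and 18.0 CPM in the same 4 embryo libraries and between 3.14 and 10.3 CPM in the others, and between 1.41 and 7.01 CPM in the 4 endosperm libraries and between 0.107 and 0.273 CPM in the others. Of all genes tested, 18.8% in the embryo and 3.57% in the endosperm were higher in these libraries without overlap. As these libraries were set apart by a component of the same counts, the ranges are a description and were not tested.

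The other members overlapped between those libraries and the rest. In the embryo Solyc09g065850 ran from 3.74 to 8.06 CPM in the 4 libraries, against 1.12 to 4.32 CPM in the others, and Solyc12g007230 from 7.32 to 8.74 CPM, against 2.51 to 7.70 CPM. Solyc04g076850 ran from 151.9 to 201 CPM, against 155 to 237 CPM.

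**Figure D4:**
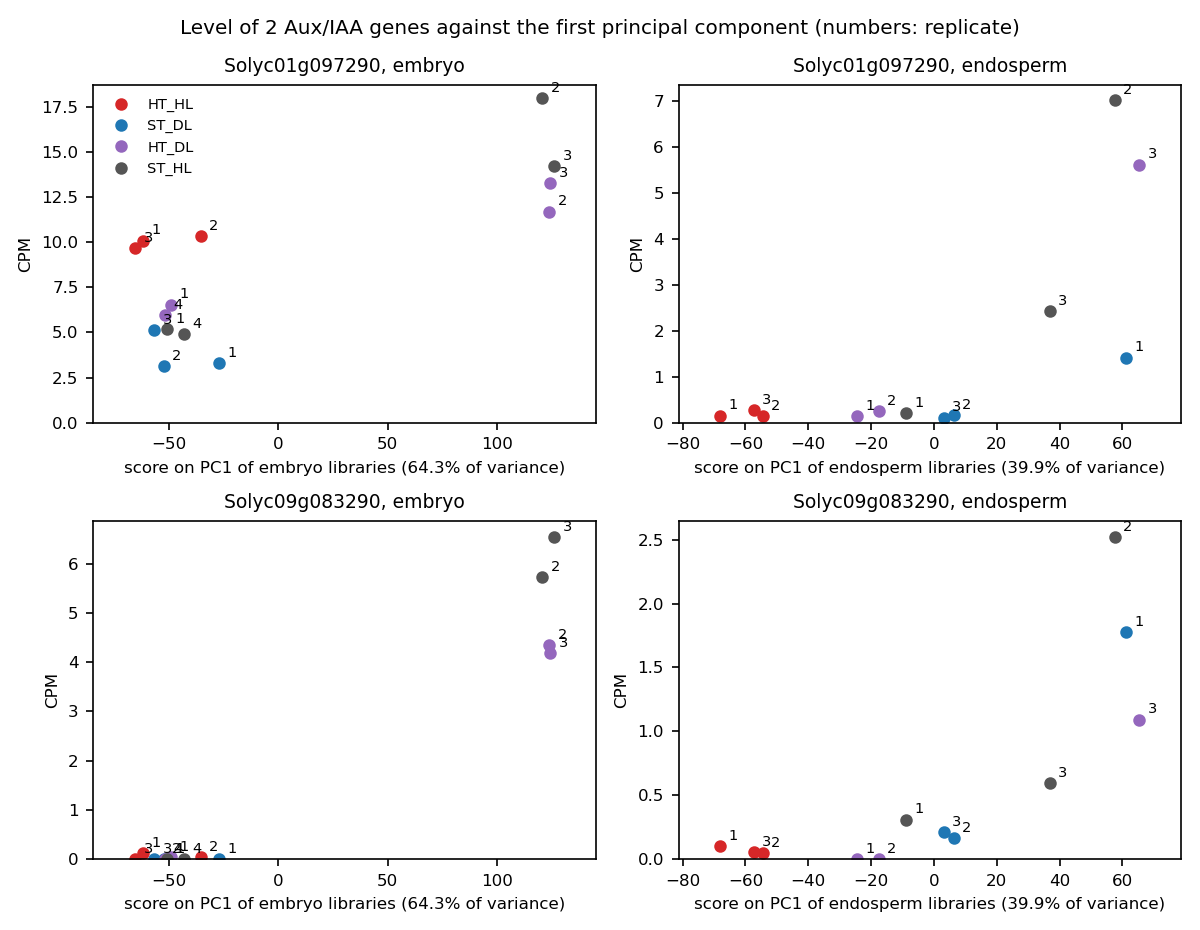
CPM (y axes, from 0) of Solyc01g097290 and Solyc09g083290 in each library against its score on the PC1 of that tissue's libraries (x axes), coloured by condition and numbered by replicate. The 4 embryo libraries at scores of 121 to 126 hold 4.18 to 6.54 CPM of Solyc09g083290, and the other 10 hold at most 0.126 CPM.

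Comparisons with ST_HL embryos depended on those libraries for Solyc01g097290. It averaged 10.03 ± 0.339 CPM in HT_HL (n = 3), 3.86 ± 1.11 CPM in ST_DL (n = 3), 9.37 ± 3.66 CPM in HT_DL (n = 4) and 10.6 ± 6.59 CPM in ST_HL (SD, n = 4). HT_HL embryos differed from ST_HL embryos by a log2 fold change of -0.09 (SE 0.46, adjusted p = 0.904) with all libraries and by 1.04 (adjusted p = 0.0152), a call in the other direction, without the 4 libraries. ST_DL embryos differed from ST_HL embryos by -1.51 (SE 0.49, adjusted p = 0.112) with all libraries and by -0.37 (adjusted p = 0.503) without the 4. HT_DL embryos differed from ST_DL embryos by 1.33 (SE 0.48, adjusted p = 0.123) and by 0.70 (adjusted p = 0.109) without them. HT_DL embryos differed from HT_HL embryos by -0.09 (adjusted p = 0.908) and by -0.71 (adjusted p = 0.0641) without them. In the endosperm, HT_HL against ST_HL was -4.06 (SE 1.57, adjusted p = 0.0817), with 0.147 to 0.273 CPM in HT_HL and 0.206 to 7.01 CPM in ST_HL. Without the 4 endosperm libraries the gene did not pass the filter in the endosperm.

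Across the 26 libraries, the 3 IDs whose pattern was most like that of Solyc04g076850, by Spearman correlation among 21152 other genes, were Solyc04g016540 (rho 0.969), Solyc05g054190 (0.953) and Solyc12g099250 (0.948). Solyc04g016540 averaged 22.3 CPM in the embryo and 12.7 CPM in the endosperm, Solyc05g054190 41.7 and 2.75 CPM, and Solyc12g099250 48.5 and 22.6 CPM, so each was also higher on average in the embryo. The tissues do not overlap for Solyc04g076850, so a gene that differs by tissue in the same direction ranks high by construction. Among the members, Solyc01g097290 and Solyc09g083290 were the most alike pair in both tissues by Pearson correlation of log2 CPM, and by Spearman correlation in the embryo and not in the endosperm. Their values fell into the clusters described above, so no pooled coefficient is given.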

How the data were processed

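RNA of hand-dissected embryos and endosperm was sequenced on the BGISEQ-500 in 26 libraries, whose groups and replicate numbers were taken from the labels. The authors checked reads with FastQC, quantified them with Salmon 0.14.1 on the ITAG4.0 transcripts (build SL4.0) and deposited expected counts, not normalized, for 33976 IDs. The counts were rounded to whole numbers (10.5% of values were not whole). With the study's thresholds, but not its tool (DESeq2, run as an alternative), a quasi-likelihood F-test in edgeR 4.0.16 under R 4.3.3 (TMM, filterByExpr at 10 counts per library and 15 in total), was fitted per tissue for the environments and over all libraries for the tissues, with 19253, 19185 and 21153 genes tested in the embryo, the endosperm and all libraries. CPM use TMM-adjusted library sizes. SE is the log2 fold change divided by the square root of F. Principal components used log2 CPM, prior count 2. Embryo replicates had a common biological coefficient of variation of 0.365 and endosperm replicates of 0.219, so the spread between replicates limits precision more than counting does, except near the floor.

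Members and lists were chosen with earlier results of these data known. All 10 members are accounted for, with values per library for each gene called in any comparison, and the 3 IDs most like the leading member are named by ID. Lists of other auxin signalling genes and of tissue markers were void, since 0 IDs matched the RefSeq table used here. Alternatives were DESeq2 1.42.0, voom weighted by sample quality (limma 3.58.1), RLE scaling, no filter, no fold threshold, fits of all 26 libraries or of the 2 groups compared, the replicate number as a block, the 4 embryo libraries that stood apart left out, and each replicate left out. Leaving out the 4 endosperm libraries high on PC1 was added after the data were seen. The scripts were tested on simulated data.

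Replicate numbers were taken to pair libraries where every same-numbered pair deviated together from its group means (correlation above 0.1). This held for HT_DL and ST_HL embryos (0.75 to 0.832, although different numbers reached 0.849), and for embryo and endosperm in ST_HL (0.102 to 0.437) and HT_HL (0.129 to 0.346). What a number shares is not given in the sources used here. No replicate pair agreed within sampling noise (chi-square per degree of freedom 3.83 to 110.0). Within a tissue and condition, each replicate came from other seeds and fruits. Whether the embryo and endosperm libraries of a number came from the same seeds is not given, nor whether plants were shared. The main tests were run without a replicate block.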

Additional observations from a re-analysis of the deposited data

Results flagged for a closer look

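In groups of 4 libraries, 1 library lay far from the other 3 for 3 genes near the floor. The gap to the nearest library divided by the range of the group was 1 for Solyc06g053830 in both HT_DL and ST_HL embryos, 1 for Solyc03g120380 in HT_DL embryos and 0.908 in ST_HL embryos, and 0.908 for Solyc08g021820 in ST_HL embryos. All of these rest on 0 to 5 counts. Of 20 such groups examined 5 were beyond Dixon's critical value, which chance passes in about 1 in 20 groups of continuous values. With so few counts the measure comes near 1 by construction, so that rate does not apply to them.

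By adjusted p alone, and under the fold threshold, the effect of dim light on Solyc04g076850 in the endosperm differed between the temperatures. The interaction was 0.57 on the log2 scale (adjusted p = 0.0304, range over 20 alternatives 0.00244 to 0.334), where 5.14% of all genes passed by adjusted p alone. Several fits with 1 library left out missed the threshold, as given above. The HT_DL endosperm libraries of this gene lay above all HT_HL libraries, and its ST_DL libraries below all ST_HL libraries.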

How the results depend on the processing

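Counts of called members moved as follows, and the cause was not tested. The shares of all genes called under each setting are not given, so these counts show only how the calls depend on the setting. In the embryo, HT_HL against ST_HL went to 1 without the 4 libraries that stood apart (0 to 1 with 1 replicate left out), ST_DL against ST_HL to 1 with DESeq2, HT_DL against HT_HL to 2 with no fold threshold, HT_DL against ST_DL to 1 with DESeq2, and the interaction to 1 with DESeq2, 2 in the fit of all 26 libraries, 3 with the replicate block and 0 to 1 with 1 replicate left out, each from 0. In the endosperm, HT_HL against ST_HL went to 2 with DESeq2 and 1 with no fold threshold or all 26 libraries, and the interaction to 1 with no fold threshold, each from 0. HT_DL against HT_HL endosperm, with 1 call, had 0 with voom, all 26 libraries, the 2-group fit or the replicate block, 2 with no fold threshold and 0 to 1 with 1 replicate left out. Embryo against endosperm in HT_HL, with 2 calls, had 5 with no fold threshold, 1 in the 2-group fit and 2 to 3 with 1 replicate left out. In ST_DL, with 3 calls, it had 2 to 3 with 1 replicate left out. In HT_DL, with 1 call, it had 2 with DESeq2 or no fold threshold, 0 in the 2-group fit, and 3 with the replicate block or without the 4 embryo libraries. In ST_HL, with 1 call, it had 3 with voom, 2 with no fold threshold, the replicate block or without the 4 embryo libraries, 0 in the 2-group fit and 1 to 2 with 1 replicate left out. Of 324 counts under alternatives 284 stayed within 1.5 times.

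Of 2441 values of single members, 2373 kept direction and side of the threshold, 18 lost and 47 gained it, and 3 turned: Solyc01g097290 in HT_HL against ST_HL embryos (1.04 without the 4 embryo libraries) and Solyc09g083290 in embryo against endosperm in ST_HL (-3.57 with voom, -7.58 without the 4 embryo libraries, which leaves it no embryo count, so this fitted value is no bound). RLE normalization moved the median of all genes by at most 0.04 (log2).

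Beyond embryo against endosperm in ST_HL, the replicate block changed no call of paired comparisons. It did change the embryo interaction, where it also joined ST_DL and HT_HL embryos, for which pairing by number did not hold. Low genes are limited by depth: 2 members could not be tested, and Solyc08g021820 rests on 11 embryo counts.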
